A study of Capra hircus with 9 samples.

Results

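Genes of the anchorage of epithelium to its basement membrane were followed across 3 concentrate diets: the integrins ITGA6, ITGB4, ITGA3 and ITGB1, the laminin chains LAMA3 and LAMB3, the hemidesmosome proteins COL17A1 and DST, and TP63, the transcription factor of the basal layer. They were chosen by name. Of the 9 names, 8 were listed by symbol in the files, among 18383 genes named in all, and all 8 passed the filter on low values with 11668 genes tested. DST was not listed by symbol, but the row LOC106503471 carries the gene ID that RefSeq gives to DST, and it is described beside the 8 and kept out of their counts. RNA came from the rumen wall's inner lining, a stratified epithelium, in goats (Capra hircus) aged 4 months. The labels name 3 treatments, the HC, MC and LC diets, with 3 libraries each, and do not spell out the letters, the breed or the feed. All libraries share tissue, age and protocol (Trizol RNA, TruSeq libraries), and no label says that they came from separate animals, so p-values measure only the spread between these samples.

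Hemidesmosomes rivet basal cells to the basement membrane. The products of ITGA6 and ITGB4 form the receptor that spans the membrane, COL17A1 is a transmembrane collagen beside it, and DST and PLEC are plaque proteins that tie the receptor to the keratins KRT5 and KRT14. LAMA3 and LAMB3 encode chains of the laminin that this receptor binds. The products of ITGA3 and ITGB1 form a further laminin receptor, which sits in contacts linked to actin, and ITGB1 also pairs with many other alpha chains and is made by most cell types. TP63 maintains basal cells of stratified epithelia and is known to act on several of these genes.

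The values are FPKM, which scale fragments to transcript length and library, so levels can be set side by side between genes whose models are complete. Their sum was lowest in LC1 (755624) and 903006 to 1051180 elsewhere. They hold no counts, so depth is unknown and no counting error can be given. KRT5 stood at 2696 to 4803 FPKM and KRT14 at 925 to 1623 FPKM, so RNA of these keratins of basal epithelium was present in every library. KRT15 was not listed by symbol. Smooth muscle markers differed far more: the 12 markers summed to 66.3 FPKM in LC3, 1372 in LC2 and 2598 in LC1, to 1239 to 3846 in MC and to 122 to 158 in HC. Of 9 tested markers of differentiated and cornified epithelium, limma called 2 rises and 3 falls in HC minus LC (7.79% and 17.4% of all genes). It called 2 and 4 in MC minus LC (16.2% and 17.1%), and 4 and 2 in HC minus MC (8.00% and 17.0%). KRT4 stood at 1.65 to 2.25 FPKM in MC against 31.6 to 69.8 in LC, and TGM1 at 299 to 400 against 129 to 180. The part of these layers in the results was not tested. In such bulk samples, fewer cells of a type and less RNA per cell cannot be told apart. The HC files also differed from the other 6 in a header word and in holding 11468 to 12038 empty lines, and this cannot be told apart from the diet. All genes together had a median log2 change of -0.10 both for HC minus LC and for HC minus MC, and of -0.0067 for MC minus LC, so any HC change carries that offset.

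**Figure D1:**
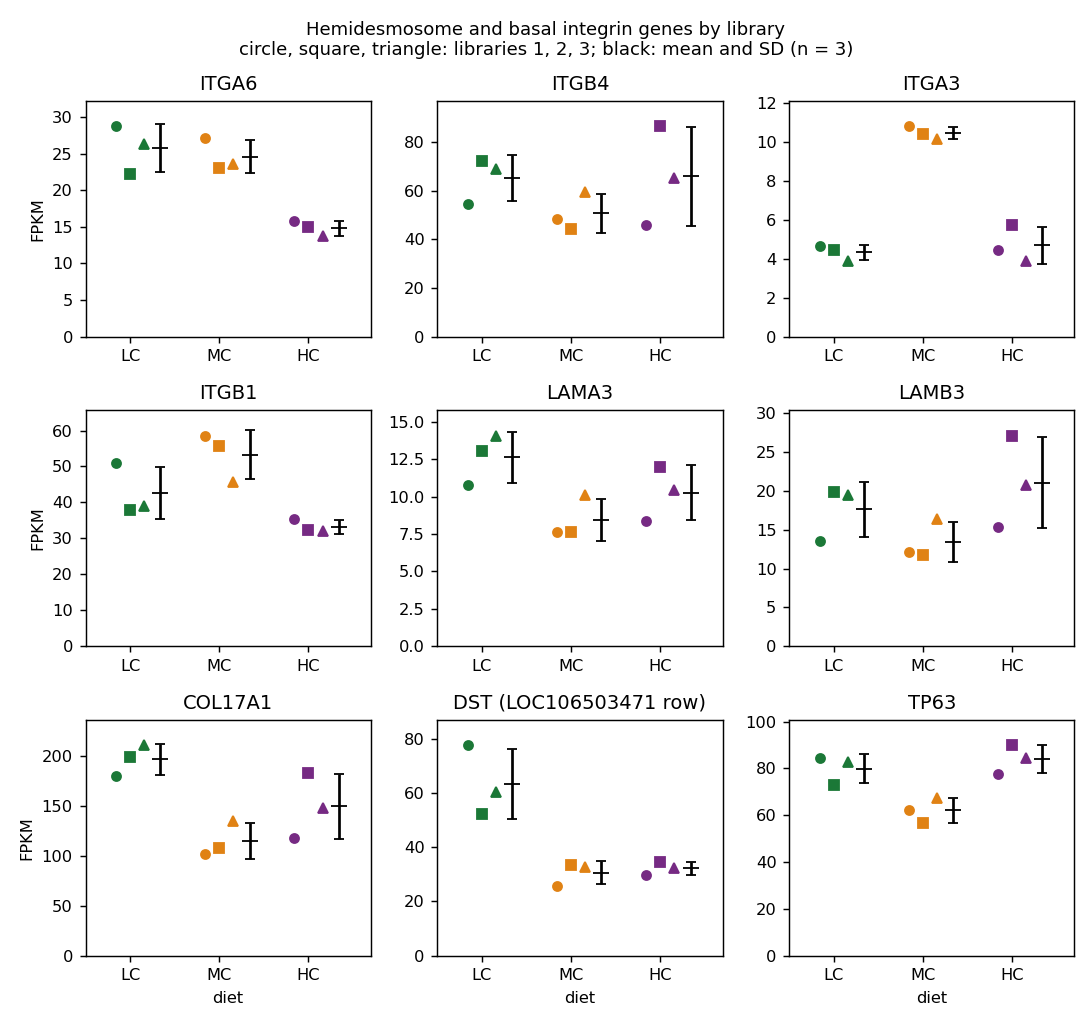
FPKM of each gene in each library, with LC in green, MC in orange and HC in purple; circles, squares and triangles are libraries 1, 2 and 3 and black bars the mean and SD (n = 3). ITGA3 stands apart in MC, ITGA6 in HC and the DST row in LC, while the diets overlap for ITGB4 and LAMB3.

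The genes of this anchoring complex did not all move together. ITGA3 was 2.42-fold higher in MC than in LC, ITGA6 was lower in HC than in LC or MC, ITGB1 was lower in HC than in MC, and COL17A1 and LAMA3 were lower in MC than in LC. TP63 was higher in HC than in MC. ITGB4 and LAMB3 passed the test in no contrast. In limma's F test of the 3 diets, 6 of the 8 genes passed, against 45.2% of all genes tested. In HC minus LC 0 rose and 1 fell of 8 (25.2% of all genes were called, 7.79% as rises and 17.4% as falls), with a median log2 change of -0.15 against the -0.10 of all genes. In MC minus LC 1 rose and 2 fell (33.4% of all genes called, 16.2% as rises and 17.1% as falls), with a median of -0.36. In HC minus MC 1 rose and 3 fell (25.0% of all genes called, 8.00% as rises and 17.0% as falls), with a median of 0.29, since 5 of the 8 changes were positive. These 5 were ITGB4, COL17A1, LAMA3, LAMB3 and TP63, and all 5 changes were negative in MC minus LC. Of them, only TP63 passed in HC minus MC and only COL17A1 and LAMA3 in MC minus LC. The 3 contrasts share libraries and are not independent of one another. These shares lie on either side of the background, and with 8 genes nothing particular to the group is read from them.

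The libraries of the compared diets did not overlap for 2 of 8 genes in HC against LC (40.6% of all genes), for 4 of 8 in MC against LC (47.1%) and for 4 of 8 in HC against MC (46.4%).

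Over the 9 libraries COL17A1 had the highest level, with a mean of 154 FPKM, above 94.7% of the genes tested. TP63 (75.4 FPKM), ITGB4 (60.5), ITGB1 (43.1), the DST row (42.1), ITGA6 (21.7), LAMB3 (17.4), LAMA3 (10.5) and ITGA3 (6.49) followed as mean levels. COL17A1, at 102 to 211 FPKM, did not overlap the TP63 range of 56.9 to 89.98 FPKM, and every other pair of neighbours in this order overlapped across the libraries. ITGA3, the lowest, lay above 41.5% of the genes tested. The COL17A1 row spans 24719 bases in the files, against 47314 for the gene in RefSeq's table. LAMA3 spans 150910 against 255539 and ITGA6 57009 against 85827, while ITGA3, ITGB1, LAMB3 and TP63 lie close to RefSeq's spans. The order of levels between genes is uncertain to that extent.

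Of the receptor chains, ITGA6 (chromosome 2, 23427591 to 23484599 in the files' coordinates) encodes the alpha chain that pairs with ITGB4 in the hemidesmosome. It measured 28.7, 22.2 and 26.4 FPKM in LC1, LC2 and LC3. The MC libraries gave 27.1, 23.1 and 23.6 FPKM. The HC libraries gave 15.7, 14.9 and 13.8 FPKM. Every HC library lay below every LC and MC library, and the LC and MC ranges overlapped. The log2 change was -0.75 ± 0.13 (SE) in HC minus LC (limma adjusted p = 0.00155) and -0.69 ± 0.13 in HC minus MC (adjusted p = 0.00318). MC minus LC gave -0.06 (95% interval -0.34 to 0.22, adjusted p = 0.746). LC3, the LC library with less smooth muscle marker RNA than any HC library, stood at 26.4 FPKM. With LC3 alone for LC, a single library chosen after seeing the data, the HC minus LC change was -0.79. The part of smooth muscle in the result was not tested.

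ITGB4 (chromosome 19, 54692958 to 54721350), whose product pairs only with that of ITGA6, had a level about which the libraries of a diet disagreed. It measured 54.4, 72.3 and 68.9 FPKM in LC1, LC2 and LC3, 48.3, 44.1 and 59.5 FPKM in MC1, MC2 and MC3, and 45.9, 86.4 and 65.1 FPKM in HC1, HC2 and HC3. The HC libraries spanned nearly the whole range, and no pair of diets was separate. HC minus LC gave -0.02 (95% interval -0.49 to 0.44, adjusted p = 0.949). The interval for ITGA6 in that contrast, -1.03 to -0.48, overlapped this one narrowly, and the difference between the 2 chains was not tested. MC minus LC gave -0.36 (95% interval -0.83 to 0.11, adjusted p = 0.222) and HC minus MC 0.34 (95% interval -0.13 to 0.80, adjusted p = 0.265). The ratio of ITGA6 to ITGB4 ran from 0.173 to 0.343 in HC, from 0.308 to 0.529 in LC and from 0.396 to 0.562 in MC. HC lay below MC throughout and overlapped LC through HC1, and this ratio was not tested.

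ITGA3 (chromosome 19, 35720753 to 35749178) encodes the alpha chain of the other laminin receptor. Its MC libraries gave 10.8, 10.4 and 10.2 FPKM, its LC libraries 4.65, 4.43 and 3.91 FPKM and its HC libraries 4.46, 5.73 and 3.88 FPKM in the order 1, 2 and 3. MC stood clear of both other diets, and LC and HC overlapped. The log2 change was 1.11 ± 0.13 in MC minus LC (adjusted p = 9.98e-05) and -1.02 ± 0.13 in HC minus MC (adjusted p = 4.47e-04), against 0.08 in HC minus LC (95% interval -0.20 to 0.37, adjusted p = 0.672). Smooth muscle marker sums were 1239 to 3846 FPKM in MC, 66.3 to 2598 in LC and 122 to 158 in HC, and their part in the result was not tested.

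ITGB1, on an unplaced sequence (109111 to 153320), encodes the shared beta chain. It measured 50.9, 37.96 and 39.1 FPKM in LC1, LC2 and LC3, 58.6, 55.6 and 45.7 FPKM in MC1, MC2 and MC3, and 35.3, 32.3 and 31.9 FPKM in HC1, HC2 and HC3. HC was below every other library, and LC1 reached into the MC range. HC minus MC was -0.66 ± 0.15 (adjusted p = 0.00799), while HC minus LC (-0.34, 95% interval -0.66 to -0.02, adjusted p = 0.110) and MC minus LC (0.32, 95% interval -0.00049 to 0.64, adjusted p = 0.116) did not pass. MC minus LC passed without LC1 (0.45, adjusted p = 0.0186). Smooth muscle marker sums were 1239 to 3846 FPKM in MC against 122 to 158 in HC. In HC minus MC 2 of the 12 markers passed as falls, against 17.0% of all genes. The median log2 change of the 12 was -3.41, and 10 had an unadjusted limma p under 0.05. ITGB1 is also made by smooth muscle. LC1 was highest of the LC libraries in both ITGB1 (50.9 FPKM) and marker sum (2598 FPKM). MC3 was lowest of the MC libraries in both (45.7 and 1239 FPKM). LC3, with the lowest marker sum (66.3 FPKM), had an ITGB1 level of 39.1 FPKM. That was above every HC library and above LC2 (37.96 FPKM, marker sum 1372). The part of smooth muscle in the result was not tested. The ratio of ITGA3 to ITGB1 was 0.185 to 0.222 in MC, 0.0913 to 0.117 in LC and 0.121 to 0.177 in HC, so MC was highest in every library.

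**Figure D2:**
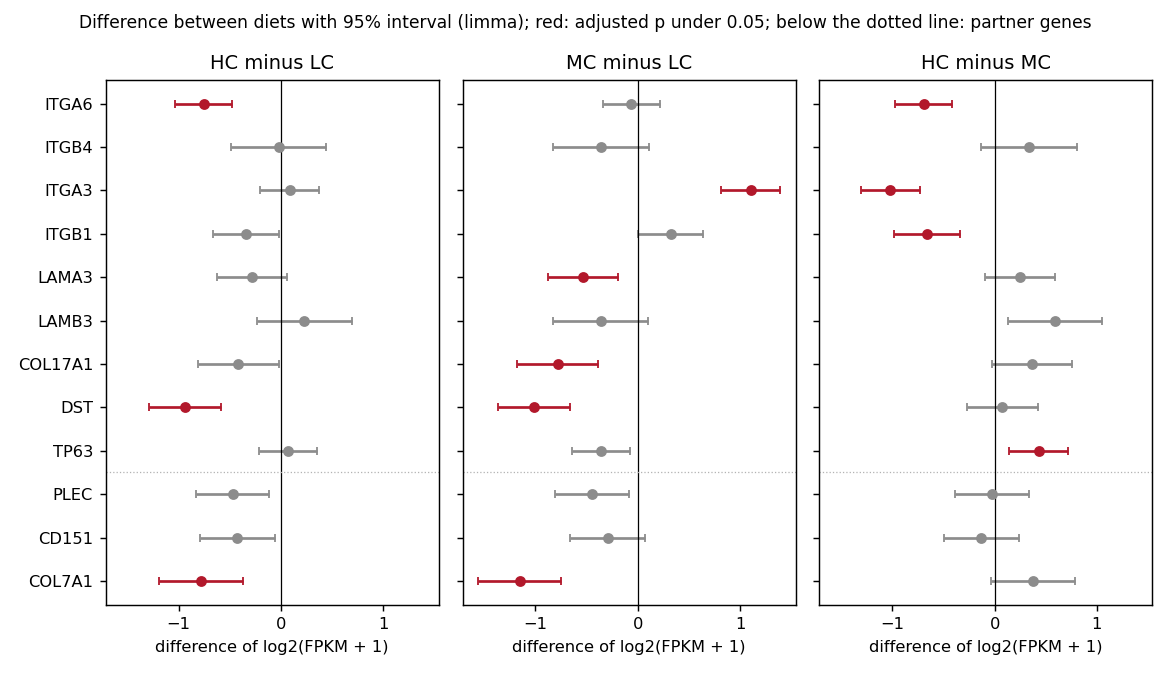
Difference of mean log2(FPKM + 1) between diets with its 95% interval for the 9 genes and, below the dotted line, 3 partner genes; red points have a limma adjusted p under 0.05. ITGA6 is red in the contrasts with HC, ITGA3 in those with MC, and the DST row and the COL7A1 row in those with LC.

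Of the laminin chains, LAMA3 (chromosome 24, 32834496 to 32985405) encodes the alpha chain that the receptors bind. It measured 10.8, 13.1 and 14.1 FPKM in LC1, LC2 and LC3, 7.63, 7.65 and 10.1 FPKM in MC1, MC2 and MC3, and 8.36, 11.998 and 10.4 FPKM in HC1, HC2 and HC3. LC and MC were separate by a narrow margin, and HC overlapped both. MC minus LC was -0.53 ± 0.16 (adjusted p = 0.0220). This call was lost without LC2, LC3, MC1 or MC2 (adjusted p = 0.0643, 0.0748, 0.0820 and 0.0826). With LC3 alone for LC the change was -0.68 ± 0.22, larger with a larger SE (adjusted p = 0.0557, with the spread taken from MC and HC). HC minus LC (-0.28, adjusted p = 0.209) and HC minus MC (0.25, adjusted p = 0.258) did not pass.

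LAMB3 (chromosome 16, 71310725 to 71353792), the beta chain, gave 13.6, 19.9 and 19.5 FPKM in LC1, LC2 and LC3, 12.2, 11.8 and 16.4 FPKM in MC1, MC2 and MC3, and 15.4, 27.1 and 20.7 FPKM in HC1, HC2 and HC3. All 3 diets overlapped, with HC2 the highest library. HC minus MC was 0.59 ± 0.21 (95% interval 0.13 to 1.05, adjusted p = 0.0617), and the other contrasts gave -0.36 in MC minus LC (adjusted p = 0.213) and 0.23 in HC minus LC (adjusted p = 0.456). HC minus MC passed without LC1, MC3 or HC1 (adjusted p = 0.0353, 0.0454 and 0.0191), after median-of-ratios scaling (adjusted p = 0.0292) and after quantile normalization (adjusted p = 0.0222).

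The proportion of the 2 laminin chains differed between diets. LAMB3 over LAMA3 was 1.26 to 1.52 in LC, 1.54 to 1.63 in MC and 1.84 to 2.26 in HC. No diet overlapped another, though LC and MC were apart by a narrow margin, and HC had the most LAMB3 for its LAMA3. Separation of all 3 diets was not particular to this ratio. ITGA3 over ITGB1, ITGA6 over ITGA3 and COL17A1 over KRT5, among the ratios formed, also showed it. ITGA6 over ITGA3 was 5.01 to 6.74 in LC, 2.22 to 2.51 in MC and 2.61 to 3.54 in HC. How often ratios between other genes do so was not counted. The ratios are descriptions and carry no test, and a ratio within a library does not depend on how that library was scaled. The level of a ratio does depend on how complete the models of both genes are.

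**Figure D3:**
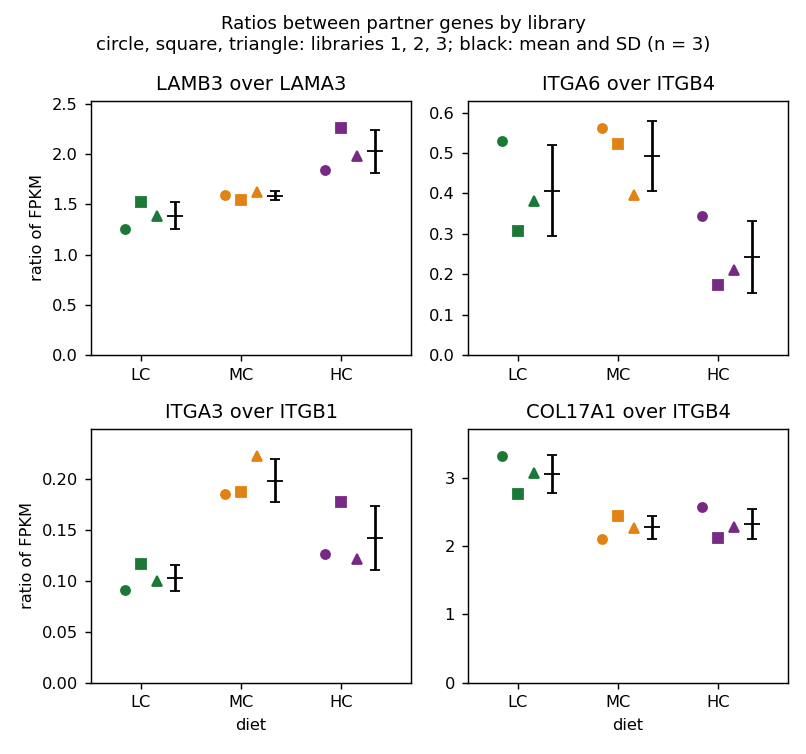
Ratio of FPKM between pairs of genes in each library, by diet, with colours and symbols for diet and library number and black bars for mean and SD (n = 3). The panel of LAMB3 over LAMA3 has its highest values in HC (1.84 to 2.26), and the panel of ITGA3 over ITGB1 has its highest in MC (0.185 to 0.222).

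Of the hemidesmosome proteins, COL17A1 (chromosome 26, 22874907 to 22899625) encodes the transmembrane collagen. Its LC libraries gave 180, 199.6 and 211 FPKM, its MC libraries 102, 108 and 135 FPKM and its HC libraries 118, 183 and 148 FPKM in the order 1, 2 and 3. LC stood above MC in every library, and HC overlapped both. MC minus LC was -0.78 ± 0.18 (adjusted p = 0.00620). HC minus LC gave -0.41 (95% interval -0.81 to -0.02, adjusted p = 0.113) and HC minus MC 0.37 (95% interval -0.03 to 0.76, adjusted p = 0.153), and the former passed once libraries were rescaled to the same sum (adjusted p = 0.0193) and after quantile normalization (adjusted p = 0.0224). COL17A1 over ITGB4 was 2.76 to 3.32 in LC, above 2.10 to 2.44 in MC and 2.12 to 2.56 in HC.

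The DST row (chromosome 23, 3068609 to 3488420) belongs to the gene of the epithelial plaque protein, which also has neuronal and muscle isoforms that a single value per gene does not separate. It gave 77.6, 52.3 and 60.2 FPKM in LC1, LC2 and LC3, 25.9, 33.4 and 32.7 FPKM in MC1, MC2 and MC3, and 29.7, 34.6 and 32.5 FPKM in HC1, HC2 and HC3. Every LC library was above every MC and HC library, and MC and HC overlapped. The log2 change was -1.01 ± 0.16 in MC minus LC (adjusted p = 6.73e-04) and -0.94 ± 0.16 in HC minus LC (adjusted p = 0.00172), against 0.08 in HC minus MC (95% interval -0.27 to 0.43, adjusted p = 0.753). LC3, with the lowest sum of smooth muscle markers of all libraries, stood at 60.2 FPKM. With that 1 library alone for LC the changes were -0.96 in MC minus LC and -0.88 in HC minus LC. The 7 markers of nerve and Schwann cells summed to 0.474 to 5.18 FPKM in LC, 1.03 to 6.02 in MC and 0.588 to 0.668 in HC, and 0 of 7 passed the filter on low values. Leukocyte markers were highest in LC too, at sums of 176 to 193 FPKM against 52.1 to 58.9 in MC and 60.97 to 76.4 in HC. Of 11 tested, 9 fell in HC minus LC (17.4% of all genes) and 10 in MC minus LC (17.1%). The part of these cell types in the result was not tested. The row shares its locus in the files with LOC102178676, so its value is uncertain. That other row was also highest in LC, at 5.51 to 7.84 FPKM against 2.33 to 3.53 in MC and 2.62 to 4.51 in HC.

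PLEC, the other plaque linker, was named beside DST as a partner. It stood at 56.7 to 70.3 FPKM in LC, 43.9 to 52.5 in MC and 38.4 to 58.7 in HC, and passed neither in HC minus LC (-0.47 ± 0.16, adjusted p = 0.0550) nor in MC minus LC (-0.45 ± 0.16, adjusted p = 0.0556). Both lay close to the threshold of 0.05 and crossed it in 6 and 8 of the 20 other settings listed under the processing.

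TP63 (chromosome 1, 75864774 to 76132441) gave 84.3, 72.9 and 82.7 FPKM in LC1, LC2 and LC3, 62.3, 56.9 and 67.6 FPKM in MC1, MC2 and MC3, and 77.8, 89.98 and 84.5 FPKM in HC1, HC2 and HC3. MC was lowest in every library, and LC and HC overlapped. HC minus MC was 0.43 ± 0.13 (adjusted p = 0.0327), a call lost once libraries were rescaled to the same sum (log2 change 0.26, adjusted p = 0.199) and without MC1, MC2, HC2 or HC3 (adjusted p = 0.0944, 0.128, 0.110 and 0.101). MC minus LC was -0.36 ± 0.13 (adjusted p = 0.0535), and HC minus LC 0.07 (95% interval -0.21 to 0.36, adjusted p = 0.716). The single value per gene does not separate the isoforms of TP63 that differ at their ends.

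Within a diet, libraries also differed in a pattern that 4 of these genes shared. ITGB4, LAMB3, LAMA3 and COL17A1 were all highest in HC2 and lowest in HC1, all highest in MC3, and all lowest in LC1. The pattern was not particular to them. KRT5 had it too, with 4803 FPKM in HC2, 2928 in HC1, 4412 in MC3 and 2696 in LC1. So did NBR1, PPP2R5D, ECE1 and KDM4A, named below for their likeness to LAMA3 or COL17A1. How many of all genes share the pattern was not counted. Once each diet's mean was taken away, the log2 values of ITGB4 correlated over the 9 libraries with those of LAMB3 (r = 0.98), COL17A1 (0.94), LAMA3 (0.93) and the partner PLEC (0.96). ITGB1 ran the other way (r = -0.84 with LAMA3, -0.82 with LAMB3), and ITGA6 went with ITGB1 (r = 0.73). ITGA3 (r = 0.32 with ITGB4) and the DST row (-0.03) showed little of it. The values share 9 libraries and their scaling, and the correlations are given as a description. Libraries 1 held the highest mitochondrial share of their diet, 12.8% in LC1, 11.9% in MC1 and 13.9% in HC1, against 9.15% to 11.0% in the other 6, and its part in the pattern was not tested. With libraries 1 left out of all diets, ITGB4 (log2 change 0.54, adjusted p = 0.0495), COL17A1 (0.45, adjusted p = 0.0391) and LAMB3 (0.73, adjusted p = 0.0162) also passed in HC minus MC, so 4 rose and 3 fell of 8, against 28.6% of all genes called in that setting, 11.1% as rises and 17.6% as falls. In MC minus LC ITGB1 also passed there (0.38, adjusted p = 0.0436), so 2 rose and 2 fell of 8 (31.6% of all genes called, 14.4% as rises and 17.2% as falls), and in HC minus LC 0 rose and 1 fell (24.4% called, 7.89% and 16.5%).

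**Figure D4:**
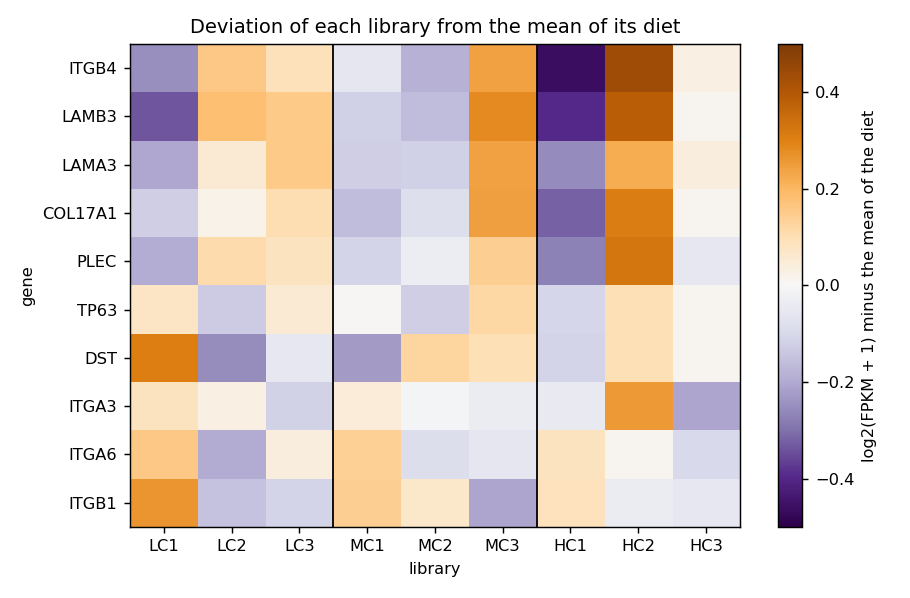
Colour gives log2(FPKM + 1) of a gene (rows) in a library (columns) minus the mean of its diet, orange above and purple below, with black lines between diets. The first 5 rows share a pattern with LC1 and HC1 low and MC3 and HC2 high, and ITGB1 in the last row runs against it.

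Genes with the profile most like that of each member, by Pearson r of log2 values over the 9 libraries, were named for the members past the F test. For ITGA3 they were EZH2, CTPS1 and VIPR1 (r = 0.98 each). CTPS1, which makes CTP, stood at 6.31 to 8.16 FPKM in MC, 1.54 to 2.27 in LC and 1.698 to 2.75 in HC. For ITGA6 they were LOC102169574 (0.99), ZNF19 and LOC102175959 (0.98 each). For ITGB1 they were TBC1D12, THBD and MIA (0.98 each). COL17A1 was closest to KDM4A, CDH3 and EHMT2 (0.99, 0.99 and 0.98). CDH3, the cadherin of basal cells, gave 7.51 to 8.15 FPKM in LC, 4.59 to 5.83 in MC and 5.48 to 7.37 in HC. It fell in MC minus LC (log2 change -0.54, limma adjusted p = 0.00815). No other of the 3 basal epithelial markers tested was called there, and 17.1% of all genes fell. LAMA3 was closest to NBR1, PPP2R5D and ECE1 (0.99, 0.98 and 0.98), the DST row to PWWP2A, CCL22 and VIPAS39 (0.99, 0.98 and 0.98), and TP63 to TNRC6B, USP24 and TMEM2 (0.98 each). These are the highest correlations among the 11668 genes tested, with the 9 members left out of the ranking. The points share diets, and no function is read from them.

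Other genes of the anchoring zone were counted from lists, to be read against all genes tested, of which 7.79% rose and 17.4% fell in HC minus LC, 16.2% and 17.1% in MC minus LC, and 8.00% and 17.0% in HC minus MC. Of 5 hemidesmosome partners and anchoring genes, 0 rose and 1 fell in HC minus LC (median log2 -0.42), 0 rose and 1 fell in MC minus LC (-0.29) and 0 of 5 passed limma's test in HC minus MC (-0.03; 0 at an unadjusted p under 0.05). The fall was that of the row matched by gene ID to COL7A1, the collagen of anchoring fibrils. It gave 7.12 to 7.77 FPKM in LC, 2.30 to 3.92 in MC and 2.79 to 4.87 in HC (log2 change -1.16 ± 0.19, adjusted p = 7.64e-04, in MC minus LC and -0.78 ± 0.19, adjusted p = 0.0108, in HC minus LC). With LC3 alone for LC the HC minus LC change was -0.72 ± 0.29, a similar size with a larger SE (adjusted p = 0.138). That row spans 2372 bases in the files, against 30540 bases for the gene in RefSeq's ARS1.2 table, so its value stands for a short stretch of COL7A1. The tetraspanin CD151, which binds laminin receptors, stood at 46.2 to 59.3 FPKM in LC, 36.4 to 50.9 in MC and 32.1 to 45.2 in HC and passed in no contrast with the main settings. Its HC minus LC change of -0.42 (adjusted p = 0.0838) passed once libraries were rescaled to the same sum (adjusted p = 0.0149) and after quantile normalization (adjusted p = 0.0431). KRT5 and KRT14 did not pass with the main settings (lowest adjusted p = 0.345). With library quality weights KRT14 passed in MC minus LC (-0.47, adjusted p = 0.00901) and in HC minus MC (0.40, adjusted p = 0.00697). Calls over all genes also rose with those weights. KRT14 in MC minus LC moved from -0.28 to -0.52 without LC1 (adjusted p = 0.00785) and passed with libraries 1 left out of all diets (adjusted p = 0.00315), as did HC minus MC (0.33, adjusted p = 0.0261).

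Of 19 tested basement membrane genes, 2 rose and 7 fell in HC minus LC (median log2 -0.63), 0 rose and 6 fell in MC minus LC (-0.38), and 1 rose and 1 fell in HC minus MC (-0.25). Of all genes, 17.4%, 17.1% and 17.0% fell in these contrasts. LAMA5, the alpha chain of other epithelial laminins, fell from 13.3 to 16.1 FPKM in LC to 7.10 to 8.43 in MC (log2 change -0.80 ± 0.13, adjusted p = 6.82e-04) and 5.62 to 7.28 in HC (-1.08 ± 0.13, adjusted p = 1.59e-04). Agrin, AGRN, also fell in MC minus LC (20.4 to 8.60 FPKM as means, log2 change -1.16) and in HC minus LC (to 12.4 FPKM, -0.68). LAMB1 fell in HC minus LC (8.90 to 3.37 FPKM as means, -1.15) and in MC minus LC (to 4.36 FPKM, -0.86). LAMC1 did not pass in HC minus LC (-0.63 ± 0.23, adjusted p = 0.0655). Its value rests on LC1 (12.9 FPKM, against 7.05 and 5.90 in LC2 and LC3): the change was -0.26 with libraries 1 left out of all diets, and -0.84 without LC3, where it passed (adjusted p = 0.0191). Fibroblast markers, whose cells also make basement membrane, summed to 227 to 574 FPKM in LC, 135 to 298 in MC and 141 to 294 in HC, with 10 of 10 markers tested and 2 lower in each contrast with LC; endothelial markers summed to 22.6 to 64.7, 17.8 to 41.6 and 15.7 to 26.8 FPKM. Their part in these falls was not tested.

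Of 11 other integrins tested, 1 rose and 2 fell in HC minus LC, 2 rose and 3 fell in MC minus LC, and 1 rose and 1 fell in HC minus MC. ITGB5, a partner of ITGAV, rose in MC minus LC (19.5 to 34.2 FPKM as means, log2 change 0.77, adjusted p = 7.86e-04), and ITGB8, a further partner of ITGAV, fell (12.4 to 5.54 FPKM, -1.04, adjusted p = 5.73e-05). Of 23 tested adhesion linkers and kinases, 0 rose and 2 fell in HC minus LC, 1 rose and 1 fell in MC minus LC, and 1 rose and 5 fell in HC minus MC. Of all genes, 7.79%, 16.2% and 8.00% rose and 17.4%, 17.1% and 17.0% fell. FERMT1, the kindlin of epithelia that activates integrins, was the rise (6.46 to 9.49 FPKM as means, log2 change 0.49, adjusted p = 0.0169), and VCL, vinculin of actin-linked contacts, was the fall with the second smallest adjusted p (19.5 to 10.5 FPKM, -0.84, adjusted p = 0.00583). VCL is abundant in smooth muscle, whose marker sums were also lower in HC than in MC. VCL was at 22.8 FPKM in LC1 (marker sum 2598), 15.0 in LC2 (1372) and 18.9 to 20.4 in MC (1239 to 3846). In LC3, with the lowest marker sum, it was at 12.6 FPKM, above the HC libraries (9.79 to 11.5 FPKM). The part of smooth muscle was not tested.

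**Figure D5:**
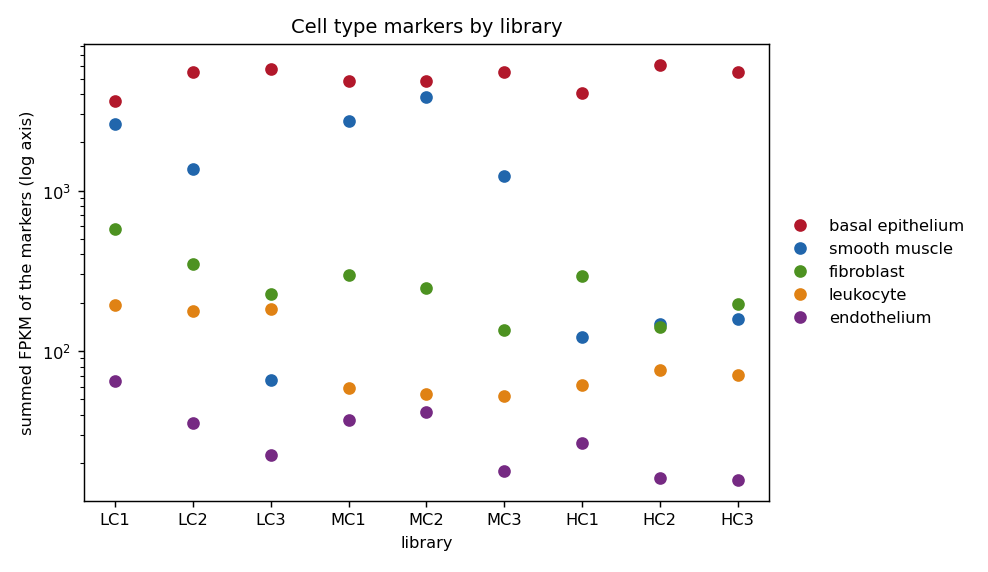
Summed FPKM of the marker genes of 5 cell types in each library, on a log axis. Smooth muscle markers run from 66.3 FPKM in LC3 to 3846 in MC2, while the basal epithelial sum stays between 3629 and 6098 FPKM. That sum is mostly KRT5 and KRT14 and does not show the third marker, CDH3 (4.59 to 8.15 FPKM).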

How the data were processed

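The authors deposited 1 value per gene and library, read here as FPKM from the tool and the values, since no label names the unit. Bowtie 1.2.0 and Cufflinks 2.2.1 are named per the submitters' processing notes. The build, the annotation and the strand were not given in the sources used here. Positions are the files' own, counted from 1, and chromosome numbers and gene IDs come from RefSeq's goat table (ARS1.2). Blank lines and 18 to 21 date-like lines per MC or LC file were dropped, and repeated names summed. A gene was tested if it was listed in all 9 libraries and reached 1 FPKM in 3 or more. Log2(FPKM + 1), which understates changes of low genes, was fitted with limma 3.58.1 in R 4.3.3 (1 mean per diet, trend and robust moderation, two-sided, Benjamini-Hochberg over 11668 genes per contrast, threshold 0.05). The fit was tested on simulated data. Members and lists were chosen with earlier results of these data known. All 9 members and 7 partners are named (1 further partner is not reported here, and its list was counted without it); of each list, up to 4 genes per contrast by adjusted p may be; and the 3 most similar genes. Alternatives changed pseudocount, filter, scaling, moderation, weights, block and libraries; LC3 alone and libraries 1 left out were chosen after seeing the data. Figures used Python 3.11.15, pandas 2.3.3, numpy 2.4.6 and matplotlib 3.10.9; weights and robust moderation used statmod 1.5.0.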

Additional observations from a re-analysis of the deposited data

How the results depend on the processing

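No called change of a member reversed its direction under any alternative run. The calls of ITGA3, ITGA6, ITGB1 in HC minus MC, COL17A1 in MC minus LC and the DST row held in each of the 20 settings chosen at the outset; those of LAMA3 and TP63 did not, as given above. Of the 8 members, 1 was called in HC minus LC, but 2 after rescaling to the same sum, quantile normalization or the replicate block and 4 with library quality weights. In MC minus LC 3 were called, but 5 with the replicate block and 7 with quality weights, and in HC minus MC 4 were, but 8 with quality weights and 7 with libraries 1 left out. Leaving out 1 library gave 1, 2 to 4 and 3 to 5 called members in these contrasts and 3 to 7 in the F test (6 with all libraries; 3 without MC1 and 3 without MC2). Over all genes, quality weights raised the calls to 8711 in the F test, to 5889 for HC against LC and to 6590 for HC against MC; a filter at 5 FPKM gave 1908 in HC minus LC, where fewer genes are tested. LC3 alone for LC, where 1 library is assumed to vary like those of MC and HC, gave 1379 in HC minus LC and 2322 in MC minus LC. Leaving out 1 library gave 1769 to 2811 genes in HC minus LC, lowest without HC3, and 1619 to 4066 in HC minus MC, with 1619 without HC3, 1676 without MC1, 1703 without MC2 and 1801 without HC2. In HC minus LC 909 genes were higher and 2030 lower, but 1620 and 1187 after median-of-ratios scaling and 1484 and 1157 after quantile normalization; in HC minus MC the split of 933 and 1984 became 1494 and 1232, and 1553 and 1296, and 538 and 2768 with libraries rescaled to the same sum. Same-numbered libraries of different diets deviated together with r = -0.08 to 0.50 over 9 pairs. The 18 pairs with different numbers gave a lower but overlapping range, -0.49 to 0.31. The main fit did not pair samples by number, and whether the numbers mark a shared effect was not tested. With the replicate block, calls in the F test over all genes went from 5274 to 6418. The block also called ITGB1 in HC minus LC and in MC minus LC (adjusted p = 0.0452 and 0.0483), TP63 in MC minus LC (0.0390) and LAMB3 in HC minus MC (0.0158). Of the partners, it called CD151 and LAMC1 in HC minus LC (0.0239 and 0.0403) and PLEC in both contrasts with LC (0.0188 and 0.0192). The cause of these changes was not tested.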

Other observations

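Among 20 tested regulators and partners of the basal layer, 1 rose and 7 fell in HC minus LC, 1 rose and 10 fell in MC minus LC, and 3 rose and 1 fell in HC minus MC, with median log2 changes of -0.24, -0.48 and 0.14. Of all genes tested, 7.79%, 16.2% and 8.00% rose and 17.4%, 17.1% and 17.0% fell in these contrasts, with medians of -0.10, -0.0067 and -0.10. The Notch receptor NOTCH1 fell from 13.3 FPKM in LC to 5.44 in HC (log2 change -1.16, limma adjusted p = 8.41e-05) and 6.43 in MC (-0.95, adjusted p = 2.09e-04), as means of 3 libraries. Its ligand JAG1 fell from 15.8 FPKM in LC to 9.003 in HC (-0.74) and 7.58 in MC (-0.96). FGFR2, the keratinocyte growth factor receptor, was lowest in MC at 7.08 FPKM, against 18.4 in LC and 11.6 in HC, and its libraries did not overlap between any pair of diets. KLF5, a transcription factor of basal and suprabasal cells, was higher in HC than in MC (188 and 130 FPKM, log2 change 0.53, adjusted p = 0.0152), and the stratifin gene SFN was lower (683 and 1079 FPKM, -0.67, adjusted p = 0.0401).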
